A study of Mus musculus with 6 samples.

Results

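The proteasome genes of mouse long-term haematopoietic stem cells (LT-HSC, the self-renewing cells from which all blood lineages arise) are described here across wild-type libraries and libraries labelled Zcchc8 KO. The members are all rows of the deposited expression table whose symbol starts with Psm, a letter from a to g and a number, without the suffix -ps of named pseudogenes. This rule uses names alone and took 49 of 14986 genes. The 49 are 7 alpha and 7 constitutive beta subunits of the 20S core, 4 tissue-specific core subunits, 17 subunits of the 19S cap, 3 chaperones of cap assembly, 4 of core assembly, 6 rows for activators and the inhibitor-like PI31, and Psmc3ip. Psmc3ip, a factor of meiotic recombination, shares the first letters of a proteasome symbol but is no proteasome gene.

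The proteasome is the protease that degrades proteins tagged with ubiquitin. Its 20S core is a stack of alpha and beta rings with the catalytic threonines inside, and the 19S cap binds ubiquitin, unfolds the substrate with a ring of ATPases and removes the tag. In blood cells the catalytic beta subunits can be exchanged for those of the immunoproteasome, which favours peptides for MHC class I, and other caps such as PA28 can replace the 19S particle. Stem cells of the marrow depend on proteasome function and on a controlled, low rate of protein synthesis.

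The study set 3 wild-type (WT) libraries against 3 of the genotype ZCCHC8 KO. The protein ZCCHC8 belongs to a nuclear complex that hands RNA to the exosome for decay. No source used here gives the allele, a Cre driver, the sorting gate or the age and strain of the mice. Each library came from polyadenylated RNA of 1500 cells sorted from lineage-depleted bone marrow, with amplification of the cDNA, and nothing in the labels says that replicates came from separate animals, so every p-value measures the spread between these libraries.

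Values are FPKM, fragments scaled to the length of the exons and to the sequencing depth. The length is that of all annotated exons of a gene together, which can exceed that of its mRNA. It was 3381 bases for Psmb8, with an mRNA of 1628, and 899 for Psmb5, with an mRNA of 899. Levels can therefore be set beside each other between genes only roughly. The reads behind them numbered between 18059318 and 25709663 per library, and the deepest is KO library 1. Zcchc8 itself measured 8.93, 5.24 and 5.16 FPKM in the WT libraries, against 10.4, 5.54 and 5.92 FPKM in KO (limma adjusted p = 0.935). It was not lower in KO, a value per gene cannot show the loss of single exons, and KO here means the libraries labelled so. All 12 LT-HSC markers listed were detected, with a summed level of 518 to 573 FPKM in WT and 387 to 434 FPKM in KO. The summed markers of red cells (7 of 7 in the table) went from 102.5 to 131.5 FPKM in WT to 421.7 to 449 FPKM in KO, and those of eosinophils (5 of 6) from 1.05 to 3.25 to 170.4 to 210.9 FPKM. Those of granulocytes (8 of 8) ran from 2958 to 3128 FPKM in WT and from 3793 to 4223 FPKM in KO. S100a9 was the highest of these genes (1321 to 1426 and 1887 to 2101 FPKM), while Mpo and Prtn3 were lower in every KO library. Those of monocytes, macrophages and dendritic cells (6 of 8) ran from 689.8 to 734 FPKM in WT and from 834 to 880.1 FPKM in KO. There the 4 genes of MHC class II presentation, H2-Aa, H2-Ab1, H2-Eb1 and Cd74, were higher in every KO library, Lyz2 overlapped and Cx3cr1 was below 1 FPKM throughout. The sums for megakaryocytes (5 of 5, 166.3 to 232.6 and 298 to 330.3 FPKM) and for T and NK cells (3 of 6, 177 to 229 and 297 to 312 FPKM) were also higher in KO. Pf4 made up most of the first and Nkg7 nearly all of the second, while Vwf, Ppbp and Klrb1c overlapped. The sums for B cells (5 of 6, 33.8 to 41.7 and 25.4 to 49.8 FPKM) overlapped. None of the markers in the table was at 0 in every WT library. Their part in the results below was not tested, and in bulk samples a change in the number of cells of a type and a change in RNA per cell cannot be told apart.

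Many proteasome genes have processed copies in the mouse genome, made by reverse transcription of the mRNA and therefore without introns. A search of the members' coding transcripts against all GENCODE M21 transcripts found 18 such copies in the table, each with 1 exon, for 11 members. A copy had to be at least 85% identical over at least 500 bases. Only genes annotated as pseudogenes were kept, and Psme2b, itself a member and annotated as protein-coding, was admitted by name as a copy of Psme2. Other protein-coding copies were left out by this rule. The 17 pseudogenes kept are all annotated as processed. Identity ran from 87.6% to 99.4%. The windows below show the 3 copies at least 98% identical and Psmb6-ps2, the copy of highest mean FPKM in WT. How reads were assigned between parent and copy was not tested. Each window is 60 bases of the coding mRNA centred on a junction of 2 exons, with the bases on either side of the junction in capitals, followed by the same stretch of the copy, with the bases that differ from the parent in capitals. They are taken from the GENCODE M21 transcripts and are written 5′ to 3′.
Psme2, exons 6 and 7: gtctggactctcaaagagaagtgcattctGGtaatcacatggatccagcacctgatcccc
Psme2b: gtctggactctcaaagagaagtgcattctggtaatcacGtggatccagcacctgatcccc
Psmb5, exons 2 and 3: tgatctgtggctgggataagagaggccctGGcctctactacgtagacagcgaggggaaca
Gm3375: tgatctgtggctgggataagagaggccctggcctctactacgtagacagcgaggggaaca
Psma5, exons 5 and 6: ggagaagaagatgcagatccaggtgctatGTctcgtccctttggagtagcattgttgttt
Psma5-ps: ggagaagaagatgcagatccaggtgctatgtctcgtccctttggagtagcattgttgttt
Psmb6, exons 3 and 4: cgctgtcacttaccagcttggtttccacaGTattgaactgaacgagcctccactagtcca
Psmb6-ps2: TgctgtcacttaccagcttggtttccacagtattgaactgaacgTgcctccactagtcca
In the genome each parent window is split over 2 exons, while the copy holds it in 1 piece. The window of Psme2b differs from its parent at 1 base and that of Psmb6-ps2 at 2, and those of Gm3375 and Psma5-ps differ at 0. Over the whole alignment Psme2b was 99.4% identical to Psme2, Gm3375 98.9% to Psmb5, Psma5-ps 98.6% to Psma5 and Psmb6-ps2 92.1% to Psmb6.

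By FPKM, most copies stood above their parents. Of the 18 copies, 13 were above the parent gene in all 6 libraries, and each of the 11 parents had such a copy. The reads behind these values, before division by exon length, could run the other way. Psmd13 had 1783, 1902 and 1840 reads in the WT libraries, against 985, 956 and 1009 for its copy Gm7419. Their annotated exons span 3377 and 925 bases. Psme2, the beta subunit of the PA28 activator (chromosome 14, 55587441 to 55591113, GRCm38, minus strand), measured 13.0, 13.9 and 14.5 FPKM in WT. Its single-exon copy Psme2b (chromosome 11, 48945354 to 48946190, minus strand) was at 353, 299 and 369 FPKM in the same libraries, the highest level of any member. Psmb3, an essential subunit of the beta ring, had 3.51, 1.83 and 2.78 FPKM, against 165.9, 141.6 and 143.9 FPKM for its copy Gm4950. Psmd2, a scaffold of the 19S base, had 12.4, 15.7 and 15.96 FPKM, against 119.7, 134.2 and 150.2 FPKM for Gm5422. Levels of the 11 parents are therefore levels of what was assigned to the parent, and the sum over parent and copies is given beside them where it matters.

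**Figure D1:**
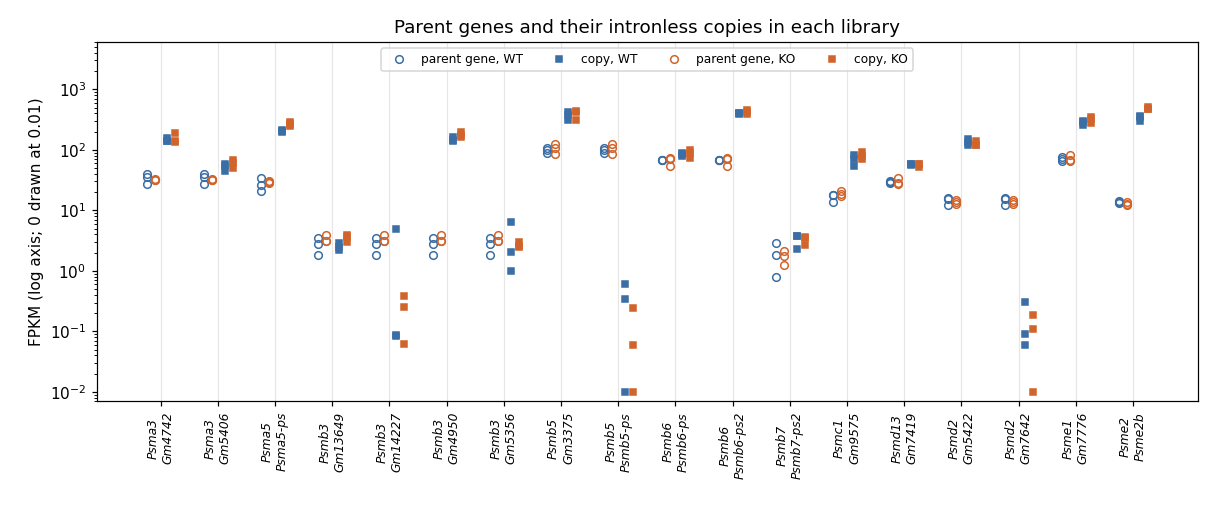
FPKM of 11 parent genes (open circles) and their 18 intronless copies (filled squares) in each library, on a log axis, with WT in blue and KO in orange; a value of 0 is drawn at 0.01. For 13 of the 18 copies each square lies above the circle of the same library, and the squares of Gm4950 lie between 141.6 and 196.7 FPKM, against 1.83 to 3.97 FPKM for Psmb3.

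Of the summed FPKM of a parent and its copies, the share on the copies was close in the 2 genotypes for several parents. Since reads were divided by exon lengths that differ between parent and copy, this share of FPKM is not a share of reads. For Psmb5 it was 78.8% ± 1.08 in WT and 78.8% ± 0.709 in KO (SD, n = 3), for Psmd2 90.2% ± 0.561 and 90.3% ± 0.274, for Psmc1, an ATPase of the cap, 80.7% ± 1.14 and 80.7% ± 0.859, and for Psmb3 98.3% ± 0.408 and 98.2% ± 0.301. For Psme2 the share was 96.1% ± 0.468 in WT and 97.4% ± 0.0633 in KO, and the groups did not overlap. Nor did they for Psmb6, at 87.6% ± 0.207 and 88.7% ± 0.957, where KO library 1 (87.77%) barely exceeded WT library 2 (87.76%). With overlap, the mean share was higher in KO for Psma3 (85.4% and 87.0%), Psma5 (88.6% and 90.1%) and Psme1 (79.8% and 81.2%). It was lower in KO for Psmb7 (66.2% and 65.5%) and Psmd13 (66.1% and 65.2%), also with overlap. No test was run on these shares.

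By role, the constitutive core genes spanned a wide range of levels although their proteins assemble in equal numbers. In WT the alpha ring ran from Psma2 at 12.8 ± 0.822 FPKM to Psma6, which encodes the alpha1 subunit, at 142.5 ± 10.7 FPKM (SD, n = 3). The beta ring ran from Psmb7, the trypsin-like catalytic subunit, at 1.84 ± 1.06 FPKM to Psmb2 at 169 ± 27.2 FPKM. Psmb7 rested on 51 to 180 reads per library and varied 3.70-fold between the WT libraries, the widest spread within WT of any member. Its copy Psmb7-ps2 was also low, at 3.30 ± 0.848 FPKM. The 6 ATPases of the cap lay between 16.5 FPKM (Psmc1) and 53.2 FPKM (Psmc3), the 8 genes of its lid between 7.14 FPKM (Psmd11) and 107.5 FPKM (Psmd7), and the 3 non-ATPases of its base between 14.7 FPKM (Psmd2) and 33.7 FPKM (Psmd4). Of the chaperones of core assembly, Psmg4 was high, at 146 ± 23.99 FPKM, and the large activator Psme4 (PA200) low, at 1.79 ± 0.581 FPKM. In all, 43 members had a mean of at least 10 FPKM in WT, 7 of at least 100, and 3, Psmb3, Psmb7 and Psme4, were below 5. Across the 48 members other than Psme2b, the WT level and the length of the mRNA had a Spearman correlation of -0.485, a description over genes that share the same 3 libraries. FPKM itself divides by exon length, so level and length are not independent measures. With the number of exons the correlation was -0.406.

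**Figure D2:**
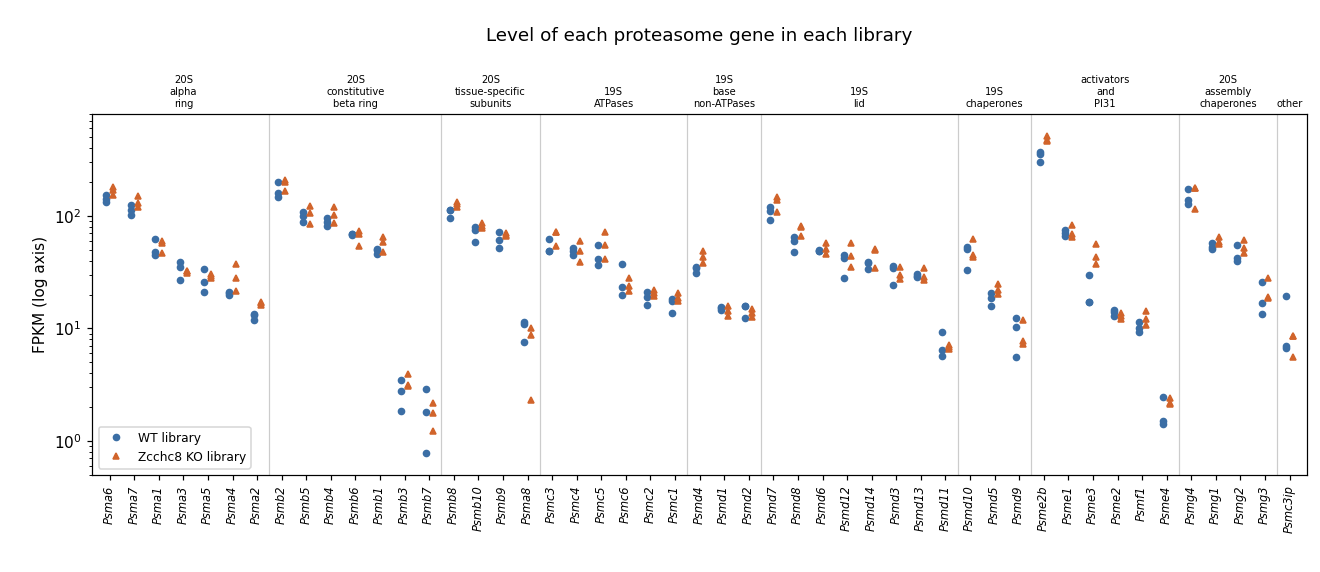
FPKM of each of the 49 members in each of the 6 libraries, on a log axis, grouped by role and ordered by the WT mean within a role; circles are WT libraries and triangles KO libraries. Psme2b stands at the top and Psmb3, Psmb7 and Psme4 below 5 FPKM, and within most genes the circles and triangles overlap.

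No proteasome gene passed the test between KO and WT. All 49 members were above the expression filter, a mean of 1 FPKM over the 6 libraries, and 0 had an adjusted p under 0.05 (limma, Benjamini-Hochberg over all 11837 tested genes), where 0.228% of all tested genes did. At an unadjusted p under 0.05 there were 5 members, or 10.2%, which is close to the 9.2% of all tested genes. All 5 were higher in KO, where 4.87% of all tested genes were, and 0 were lower, where 4.33% were. By value 37 of 49 members (75.5%) were higher in KO, against 50.2% of all tested genes, and the median log2 change of the members was 0.19, against 0.00 over all tested genes. The groups did not overlap for 8 members, 16.3%, all higher in KO, against 8.24% of all tested genes. With KO below WT in all libraries there were 0 members, against 6.99% of all tested genes. These are counts and a median, with no test of the list as a whole. The tested genes were not matched to the members for level, with a median WT level of 7.89 FPKM, against 36.97 FPKM for the members. With a filter at a mean of 5 FPKM, 4 of 46 members had an unadjusted p under 0.05 (limma), beside 10.6% of all genes tested there. The members higher by value numbered 34 with columns scaled to an equal sum and 41 without WT library 1. With limma-voom on the recovered reads 0 members were called as well, and 4 had an unadjusted p under 0.05. That number was 3 without WT library 2, 3 without WT library 3, 3 with columns scaled to an equal sum and 2 without a variance trend.

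**Figure D3:**
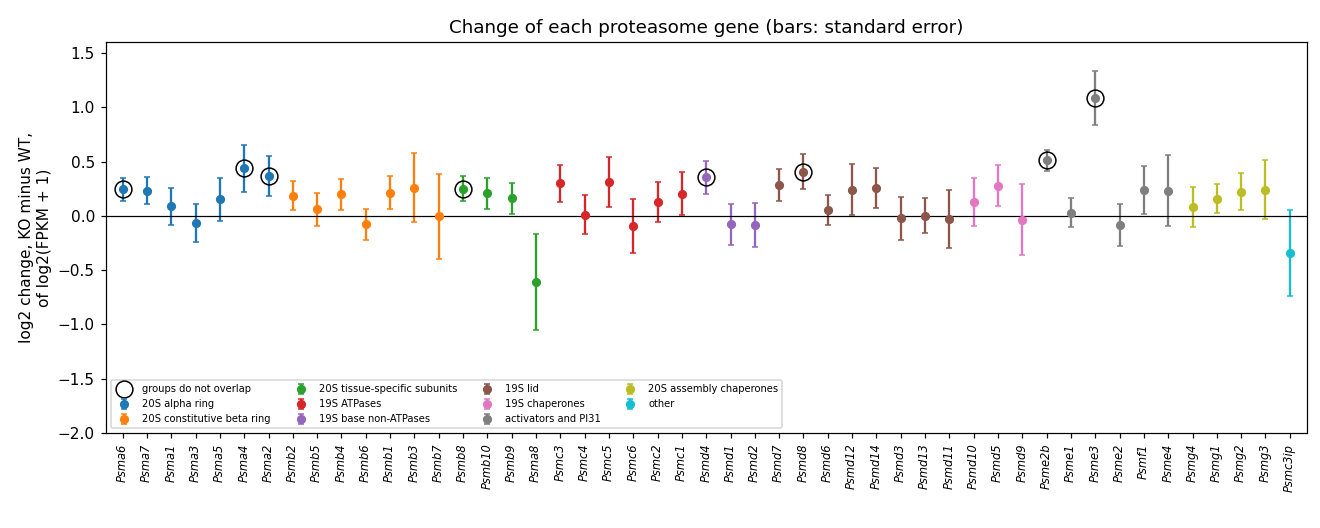
Change of each member on the log2(FPKM + 1) scale, KO minus WT, with the limma standard error, coloured by role; black rings mark the 8 members whose groups do not overlap. Most points lie slightly above 0, Psme3 stands highest at 1.08 and Psma8 lowest at -0.61.

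The 2 members of smallest p both belong to the PA28 family of activators. Psme3 encodes PA28 gamma, the nuclear ring that opens the core without ubiquitin or ATP (chromosome 11, 101316213 to 101323537, plus strand). It stood at 17.3, 29.9 and 17.1 FPKM in the WT libraries, against 43.5, 37.1 and 56.5 FPKM in KO. Every KO library was above every WT library, and WT library 2 was the nearest to them. The ratio of means was 2.13 and the log2 change 1.08 ± 0.25 (SE), with an unadjusted p of 0.00201 and an adjusted p of 0.184 by limma, so it missed the threshold. Over the other settings tried its log2 change ran from 0.92 to 1.34 and its adjusted p from 0.132 to 0.41.

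Psme2b, the single-exon copy of the PA28 beta gene, measured 353, 299 and 369 FPKM in the WT libraries, against 515, 465 and 473 FPKM in KO. The groups did not overlap, with a log2 change of 0.51 ± 0.10 (SE), an unadjusted p of 0.000475 and an adjusted p of 0.116 (limma). Its adjusted p ran from 0.081 to 0.513 over the other settings. The parent Psme2 was at 13.8, 12.1 and 12.9 FPKM in KO, inside or just below the range of its WT values, with a log2 change of -0.08 ± 0.19. Since the rows are 99.4% identical over 794 bases, the split of reads between them is uncertain. With the 2 rows summed, the level was 354 ± 36.9 FPKM in WT and 497 ± 27.6 FPKM in KO (SD, n = 3). On the log2 scale that is 0.49 ± 0.09 (SE, adjusted p = 0.119, limma). Psme1, the alpha subunit of the same ring, had 70.7 ± 4.84 FPKM in WT and 72.5 ± 9.30 FPKM in KO (SD, n = 3), with overlap. With its copy Gm7776 added, its log2 change was 0.14 ± 0.10 (adjusted p = 0.715, limma).

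**Figure D4:**
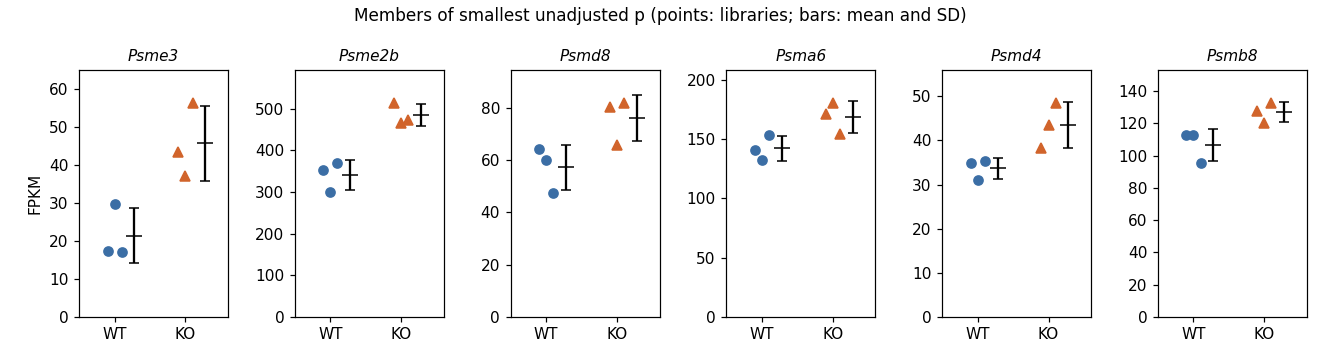
FPKM in each library, on axes that start at 0, for the 6 members of smallest unadjusted p, with the mean and SD of each group as a bar beside the points. In each panel the 3 KO points lie above the 3 WT points, with the widest separation in Psme2b and Psme3 and a narrow one in Psmd8 and Psma6.

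The other members of this activator group showed smaller differences. Psme4, which encodes the nuclear activator PA200, had 1.5, 1.4 and 2.45 FPKM in the WT libraries, against 2.12, 2.42 and 2.15 FPKM in KO. Psmf1, which encodes PI31, measured 9.36, 10.05 and 11.5 FPKM in the WT libraries, against 10.8, 12.1 and 14.2 FPKM in KO. In both genes the groups overlapped. The median log2 change of the 6 rows was 0.23, and 0.35 without WT library 3.

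The promoter of Psme3 is shown because it was the member with the largest change on the log2 scale. The 250 bases before the RefSeq start of Psme3 (GRCm38.p6, chr11:101315963-101316212, plus strand) hold 1 match to the CCAAT box, the site of NF-Y, on the minus strand, in capitals.
Psme3: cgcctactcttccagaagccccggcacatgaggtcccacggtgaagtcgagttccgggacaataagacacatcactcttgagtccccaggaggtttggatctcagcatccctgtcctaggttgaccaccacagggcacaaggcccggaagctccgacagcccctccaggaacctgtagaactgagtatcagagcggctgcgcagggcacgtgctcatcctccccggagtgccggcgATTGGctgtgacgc
RefSeq promoter windows, which run from 250 bases before to 50 after the start, were found for 41 of the 49 members. Searched on both strands, CCAAT was in 34.1% of them and in 37.9% of the windows of all 27025 genes. TGACNNNGC, the core of the antioxidant element that NRF1 and NRF2 bind, was in 14.6% and 12.5%, and the members' windows with it include those of Psmb5 and Psmb6. A pair of GAAA with 2 bases between them, as in the interferon response element, was in 12.2% (5 of 41) and 3.49%. The 5 windows with the GAAA pair were those of Psmd4, Psmd9, Psmb3, Psmg4 and Psme1. A match describes the letters only.

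In the cap, Psmd8 and Psmd4 had the smallest p. Psmd8 encodes the lid subunit Rpn12 and stood at 64.4, 60.0 and 47.6 FPKM in the WT libraries, against 80.6, 65.8 and 82.1 FPKM in KO. KO library 2 lay just above WT library 1, with no overlap, and the log2 change was 0.41 ± 0.16 (SE), with an unadjusted p of 0.0297 and an adjusted p of 0.484 by limma. Psmd4, the ubiquitin receptor Rpn10, measured 34.8, 30.9 and 35.4 FPKM in the WT libraries, against 38.2, 43.6 and 48.6 FPKM in KO, again without overlap (adjusted p = 0.539, limma). The other lid genes included Psmd7 (107.5 ± 13.9 and 131.4 ± 19.8 FPKM, SD, n = 3) and the deubiquitinase gene Psmd14 (36.97 ± 2.84 and 45.02 ± 9.11 FPKM), whose groups overlapped. Psmd6, Psmd11, Psmd13 and Psmd3 lay within 0.06 of 0 on the log2 scale. The scaffolds of the base, Psmd1 (15.1 ± 0.511 and 14.3 ± 1.44 FPKM) and Psmd2 (14.7 ± 1.98 and 13.7 ± 1.23 FPKM), were slightly lower by value.

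The ATPases, which unfold the substrate, had a median log2 change of 0.17, with 5 of 6 higher by value and 0 with an unadjusted p under 0.05. Psmc3 was at 62.2, 48.9 and 48.5 FPKM in the WT libraries, against 54.2, 71.4 and 71.8 FPKM in KO, and Psmc5 at 55.4, 41.6 and 36.8 and at 55.4, 41.2 and 72.1 FPKM. In both, 1 or 2 KO libraries were high and the groups overlapped. The assembly chaperones of the cap, Psmd5, Psmd9 and Psmd10, had a median log2 change of 0.13, which was 0.06 without WT library 2, -0.04 without KO library 3, 0.22 without WT library 1 and 0.20 without KO library 1 or 2. Those of the core, Psmg1 to Psmg4, had one of 0.19, with 4 of 4 higher by value and every pair of groups overlapping. It was 0.09 without WT library 2 or without KO library 1, and 0.30 without KO library 3.

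In the core, the alpha ring had 3 of 7 genes whose KO libraries all lay above WT, where 8.24% of all tested genes did. The median log2 change of the ring was 0.23, and 0.15 without KO library 3. Psma6 had 140.9, 132.6 and 153.9 FPKM in the WT libraries, against 171.2, 181 and 154.7 FPKM in KO. KO library 3 exceeded WT library 3 by less than 1 FPKM, and the log2 change was 0.24 ± 0.11 (SE), with an unadjusted p of 0.048 and an adjusted p of 0.536 by limma. Psma4 stood at 21.1, 19.7 and 20.7 FPKM and at 21.3, 37.2 and 28.003 FPKM, with KO libraries 2 and 3 high and KO library 1 level with WT. Psma2 measured 11.9, 13.5 and 13.1 FPKM, against 16.3, 16.8 and 17.3 FPKM, 2 tight groups with a log2 change of 0.37 ± 0.19 (adjusted p = 0.594, limma).

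Psma5 alone had 26.8 ± 6.45 FPKM in WT and 29.3 ± 1.37 FPKM in KO (SD, n = 3), with overlap. Its copy Psma5-ps (chromosome 10, 85313488 to 85314439) was at 200.7, 205.7 and 212.4 FPKM in the WT libraries, against 244.6, 285.4 and 270.9 FPKM in KO. With the copy added the log2 change was 0.34 ± 0.09, with no overlap, an unadjusted p of 0.00434 and an adjusted p of 0.248 (limma). With all copies added to their parents, 48 members remained, of which 6 had an unadjusted p under 0.05, namely Psma5, Psma6, Psmd4, Psmd8, Psme2 and Psme3, and the median log2 change was 0.20. The share of all genes at that p was then also 9.2%. The pooling was chosen after the data were seen.

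The constitutive beta ring had a median log2 change of 0.19, and 0 of 7 genes had an unadjusted p under 0.05. The median was 0.08 without WT library 2 or without KO library 1. Psmb5, the chymotrypsin-like subunit (chromosome 14), had 108.2, 89.3 and 100.8 FPKM in the WT libraries, against 106.6, 84.3 and 122.8 FPKM in KO. Psmb6, the caspase-like subunit, stood at 68.8, 68.5 and 68.3 FPKM and at 72.9, 69.6 and 54.1 FPKM, where KO library 3 was low. Psmb7 measured 2.91, 1.82 and 0.788 FPKM, against 1.77, 2.16 and 1.24 FPKM. For each of the 3 catalytic genes the groups overlapped, and the sign of the difference changed with the libraries used.

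The 3 immunoproteasome subunits were all well expressed in both genotypes. Psmb8, which replaces Psmb5, was at 112.7, 112.5 and 95.3 FPKM in the WT libraries, against 127.7, 120.5 and 132.9 FPKM in KO, with no overlap, a log2 change of 0.25 ± 0.11 (SE), an unadjusted p of 0.0531 and an adjusted p of 0.55 (limma). Psmb9, which replaces Psmb6, had 71.6, 52.0 and 61.4 FPKM, against 67.4, 66.9 and 71.2 FPKM. Psmb10, which replaces Psmb7, had 79.9, 75.6 and 58.6 FPKM, against 77.6, 85.95 and 82.05 FPKM. In these 2 the KO libraries lay closer together than the WT ones and inside or above their range. Psmb9 shares 212 exon bases with its neighbour Tap1, which lies on the opposite strand, and the use of strand is not given in the sources used here.

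As a share of the pair, which does not depend on scaling between libraries, Psmb8 made up 51.0%, 55.8% and 48.6% in WT and 54.5%, 58.8% and 52.0% in KO. Psmb9 made up 51.0%, 43.2% and 47.3% of its pair in WT and 48.04%, 49.0% and 56.9% in KO. The groups overlapped in both, and the KO mean was 3.32 and 4.15 points above that of WT. For Psmb8 the difference was 1.72 points without WT library 3, 1.45 without KO library 2 and 5.30 without WT library 2. For Psmb9 it was 2.14 points without WT library 2 and 1.38 without KO library 3. Psmb10 made up 97.6% ± 1.10 and 97.9% ± 0.507 of its pair (SD, n = 3), which rests on the low value of Psmb7. With the copies counted to the constitutive subunit, the shares became 18.6% ± 2.91 and 20.7% ± 2.49 for Psmb8 and 10.04% ± 1.56 and 10.6% ± 1.17 for Psmb9. The share of Psmb8 and Psmb9 thus depended on the counting of copies, and the genotypes overlapped in each version. The size of a share also depends on the exon lengths by which the reads were divided.

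**Figure D5:**
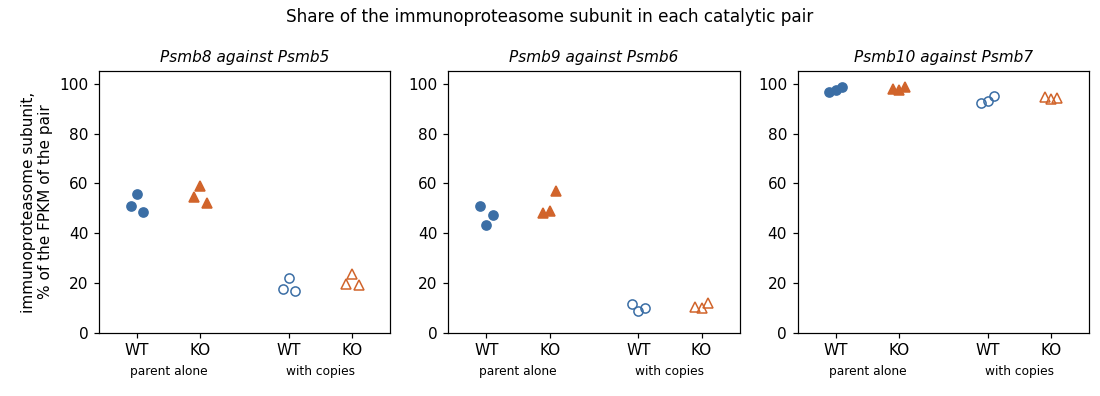
Share of the immunoproteasome subunit in the FPKM of each catalytic pair, in percent, per library, with WT as blue circles and KO as orange triangles; filled symbols use the constitutive gene alone and open symbols add its copies. The genotypes overlap in each panel, and adding the copies lowers the mean share of Psmb8 in WT from 51.8% to 18.6%.

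The core subunit gene Psma8, known from the testis, had the lowest log2 change among the members. It stood at 7.53, 10.98 and 11.4 FPKM in the WT libraries, against 8.69, 10.001 and 2.33 FPKM in KO, so KO library 3 alone was low, 4.29-fold below the highest KO library. The log2 change was -0.61 ± 0.44 (SE), with an unadjusted p of 0.203 (limma). Without KO library 3 it was -0.07. Psmc3ip measured 6.64, 19.3 and 6.98 FPKM in the WT libraries, against 8.64, 8.53 and 5.63 FPKM in KO, where WT library 2 was high. It shares 385 exon bases, 21.2% of its own, with Mlx on the opposite strand. Of the 49 members, 15 share exon bases with another gene, 12 of them with one on the opposite strand.

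Genes of the same pathway that carry other names were taken from lists, 54 of whose genes are in the table. Of the 54, 0 passed (limma and limma-voom, adjusted p), 5 had an unadjusted p under 0.05, or 9.26%, beside the 9.2% of all tested genes, and their median log2 change was 0.06. Of the 9 subunits and assembly factors, 1 was higher at that p, Uchl5, a deubiquitinase of the cap, at 27.0, 27.9 and 33.8 FPKM in the WT libraries, against 35.8, 42.4 and 44.4 FPKM in KO. Akirin2, which takes proteasomes into the nucleus, was at 32.6, 22.3 and 25.8 FPKM and at 21.4, 12.9 and 22.1 FPKM, without overlap and lower by value (unadjusted p = 0.0688, limma).

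Of 10 regulators of proteasome genes, 1 was higher at an unadjusted p under 0.05, Yy1, a zinc finger factor, at 5.41 ± 1.96 FPKM in WT and 9.65 ± 1.92 in KO (SD, n = 3). Nfyc, a subunit of NF-Y, had 9.05 ± 2.51 and 6.44 ± 3.08 FPKM. Nfe2l1, which encodes NRF1, the factor that raises proteasome genes when proteolysis is blocked, measured 9.58 ± 1.33 and 11.97 ± 5.64 FPKM, and is named for its role, after the values were seen. Of the 11 genes of ubiquitin shuttles and the unfoldase VCP, 0 had an unadjusted p under 0.05. Nploc4, an adaptor of VCP, stood at 2.52 ± 1.62 and 4.75 ± 0.485 FPKM and Zfand5, a zinc finger protein that activates the proteasome, at 25.2 ± 2.96 and 19.6 ± 1.20.

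The 9 regulators of the immunoproteasome had a median log2 change of 0.23, with 7 of 9 higher by value. Among them Ifngr1, a chain of the interferon gamma receptor, was at 72.5 ± 6.59 and 84.2 ± 10.04 FPKM (SD, n = 3). Of the 9 genes of MHC class I peptide loading, Tap1, the peptide transporter that neighbours Psmb9, had 44.5, 47.1 and 43.5 FPKM in the WT libraries, against 61.6, 57.4 and 52.3 FPKM in KO, without overlap (unadjusted p = 0.0335, adjusted p = 0.496). The class I heavy chain gene H2-K1 measured 1220.3 ± 57.2 and 1146 ± 87.8 FPKM. The 4 markers of MHC class II presentation in the list for monocytes, macrophages and dendritic cells were also higher in every KO library, with Lyz2 overlapping, and their part in these values was not tested.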

How the data were processed

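RNA was measured in 6 libraries, 3 per group, with groups and replicate numbers from the sample titles. The table deposited by the authors gives FPKM for each gene symbol. The submitters' processing notes name fastp, Bowtie2 and featureCounts and the build mm10, with no versions or order. The setting for strand and for reads that match more than 1 place is not stated there. Bowtie2 does not split reads over introns.

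Symbols were matched to GENCODE M21 (GRCm38), 14669 directly and 179 by an older symbol. Values multiplied by exon length came out as whole reads (tolerance 0.05) for 97.9% to 98.3% of entries below 100 reads. A single read on a gene of 2 kb corresponds to 0.0194 to 0.0277 FPKM. Replicates differed by more than counting error, since the chi-square statistic averaged 56.8 to 81.3 over genes.

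All genes averaging 1 FPKM or more were tested on log2(FPKM + 1), which understates changes of low genes, with limma 3.58.1 (R 4.3.3, eBayes with trend, two-sided, no block). Benjamini-Hochberg adjustment ran over 11837 genes, with a threshold of 0.05. The procedure was tested on simulated data. Copies were found with BLAST+ 2.17.0. Named are the catalytic subunits, the 4 members of smallest p in each direction, the extremes of level and spread, the row that is no proteasome gene, near-identical copies and up to 2 genes of each pathway list, some of which are not reported here. Others were named for their role or for groups without overlap, after their values were seen. Members and lists were chosen with earlier results of these data known. The alternatives tried concern the pseudocount, low-value filter, scaling between libraries, variance model, replicate block, single libraries left out and, added after the data were seen, the counting of copies.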

Additional observations from a re-analysis of the deposited data

How the results depend on the processing

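Under each of the 15 other settings 0 proteasome genes and 0 pathway genes had an adjusted p under 0.05 (limma), and the median log2 change of the members lay between 0.13 and 0.21. The number of members at an unadjusted p under 0.05, 5 in the main test, was 3 with columns scaled to an equal sum and 2 without the variance trend. It ran from 3 (without WT library 2 or 3) to 6 (without WT library 1). Psme3 and Psme2b were among them in every setting that held both rows. With the replicate block it was 4. Deviations of same-numbered libraries had correlations of 0.0037 to 0.0235, and not every library correlated best with its own number. No shared effect of the number was seen. Such values cannot tell whether same-numbered libraries were prepared together. With 1 library left out, the median log2 change ranged from -0.0824 to -0.0075 for the 3 base non-ATPases, from -0.0378 to 0.2207 for the 3 cap chaperones, from 0.0784 to 0.222 for the constitutive beta ring, from 0.0541 to 0.177 for the lid, from 0.0875 to 0.297 for the core chaperones, from 0.118 to 0.282 for the tissue-specific subunits, from 0.152 to 0.30 for the alpha ring, from 0.124 to 0.211 for the ATPases and from 0.171 to 0.354 for the activators. In all, 17 of 49 members had the other sign when some 1 library was left out, 8 of them without WT library 1, 9 without WT library 2 and 8 without KO library 3. Among the catalytic subunits and the members of smallest p, the ranges that crossed 0 were -0.588 to 0.118 for Psmc3ip (above 0 without WT library 2), -0.158 to 0.0542 for Psmb6 (above 0 without KO library 3), -0.0634 to 0.205 for Psmb5 (below 0 without KO library 3, and -0.015 without WT library 2) and -0.302 to 0.263 for Psmb7 (above 0 at 0.0269 and 0.131 without WT library 2 or KO library 3). Psmb7 also had 0.0451 with a pseudocount of 0.1 FPKM and 0.0691 with voom. With copies added to their parent, Psmb7 had 0.0035, Psmb6 0.0642 and Psme2 0.492, the last by construction, since Psme2b holds most of that sum. The cause of the other sign changes was not tested. Psmb7 rests on 51 to 180 reads per library and Psmb3 on 77 to 190, the fewest of the members, and reads of amplified cDNA are not independent molecules.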
